A study of Mus musculus with 12 samples.

Results

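Activator protein 1 (AP-1) genes were followed in RNA-seq of mouse muscle stem cells (MuSCs) that were freshly sorted, cultured, or cultured under compression. The 9 members, of 55335 genes in the count files, were taken by an exact match of the gene name, and all 9 were found. They are Fos, Fosb, Fosl1 and Fosl2 of the Fos family, Jun, Junb and Jund of the Jun family, and Atf3 and Batf3 of related families. All cells came from the hindlimb of Pax7-ZsGreen mice, 3 to 6 months old, in which Pax7-expressing cells carry a green fluorescent protein, and were sorted on ZsGreen. F cells were freshly isolated and were collected straight into TRIzol during the sort. Uncompressed cells were kept for 2 days (2d-U) or 5 days (5d-U) on plastic coated with Matrigel and fibronectin, in a growth medium with FGF and serum. 2+3d-C cells were cultured for 2 days without compression and then for 3 days under a microfluidic pillar that pressed on them from above. Each group had 3 libraries, and the labels do not say how many mice gave a library or which libraries share a sort.

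AP-1 is a dimer of proteins with a basic region that binds DNA and a leucine zipper that joins the partners. Fos proteins pair with Jun proteins, whereas Jun proteins can also pair among themselves and with ATF family proteins. Many of these genes are immediate-early genes, whose RNA appears soon after a stimulus without new protein synthesis and is short-lived. In muscle, their RNA is known to be present in MuSCs that have gone through tissue dissociation and sorting, and it is also known to respond to injury and to mechanical load.

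The start regions of Fos, Jun and Atf3 are shown because Fos and Atf3 differed far more between the groups than Jun did, and because all 3 windows hold elements known to receive signals. RefSeq (build GRCm38.p6, the same coordinates as mm10) gave a window of 300 bases, from 250 before the start to 50 after it, for 8 of the 9 members. Capitals mark TGACGT or TGACNTCA, which are variants of the cAMP response element bound by CREB, ATF and AP-1 proteins, and TATAAA, the TATA box. Both strands were searched. The Fos window is chr12:85473640-85473939 on the plus strand. The Jun window is chr4:95052173-95052472 on the minus strand, and the Atf3 window is chr1:191183284-191183583 on the minus strand. RefSeq starts were used, and these can differ from the starts of the counted genes. The counted Atf3 gene spans chr1:191170296-191218039, so its window lies inside the gene and not at its outer start.
Fos: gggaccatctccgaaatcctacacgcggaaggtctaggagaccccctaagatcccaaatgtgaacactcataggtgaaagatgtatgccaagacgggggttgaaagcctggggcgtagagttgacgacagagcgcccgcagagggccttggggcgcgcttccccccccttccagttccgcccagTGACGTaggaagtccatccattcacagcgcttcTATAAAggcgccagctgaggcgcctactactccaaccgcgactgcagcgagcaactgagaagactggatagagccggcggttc
Jun: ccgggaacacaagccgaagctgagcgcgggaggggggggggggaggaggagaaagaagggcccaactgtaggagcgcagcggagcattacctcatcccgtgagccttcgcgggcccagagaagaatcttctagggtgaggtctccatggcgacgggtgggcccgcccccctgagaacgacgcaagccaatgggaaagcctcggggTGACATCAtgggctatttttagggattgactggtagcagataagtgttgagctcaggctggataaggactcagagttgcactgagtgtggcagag
Atf3: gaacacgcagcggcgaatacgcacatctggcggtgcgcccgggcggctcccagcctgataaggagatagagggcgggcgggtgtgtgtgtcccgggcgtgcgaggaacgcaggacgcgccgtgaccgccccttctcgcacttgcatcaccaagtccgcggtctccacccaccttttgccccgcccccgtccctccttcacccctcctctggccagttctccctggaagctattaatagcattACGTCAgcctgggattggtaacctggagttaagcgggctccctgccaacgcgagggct

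Counted back from the start, TGACGT began at base -66 and TATAAA at base -33 in Fos, and TGACATCA, a match to TGACNTCA, began at base -45 in Jun. In Atf3, TGACGT lay on the opposite strand from base -8. TGACGT was found in 2 of the 8 windows and in 7.51% of all 32851 promoter windows. TGACNTCA was in 1 of the 8 and in 8.83%, and TATAAA in 2 of the 8 and in 13.6%. The Fosb window held none of these elements. Yet its log2 fold change in 2+3d-C against 5d-U was larger than that of Fos (8.84 and 7.3). The GC box GGGCGG was in 6 of the 8 and in 35.7% of all windows. The full element TGACGTCA, which contains TGACGT and matches TGACNTCA, was in none of the 8 windows and in 1.79% of all windows. The AP-1 site TGANTCA was in none of the 8 and in 7.81% of all windows, and the CArG box of serum response factor was in none of the 8 and in 1.63%. TATAAA was also found in Junb, from base 1, the start itself. These matches are descriptions of the letters in the windows only.

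Reads counted on genes in a library ranged from 12540745 to 62424851. They were 24577250, 25854470 and 32782757 for F (replicates 1, 4 and 5), 45003574, 20329459 and 36266156 for 2d-U (replicates 1, 2 and 3), 20953163, 29384369 and 30593562 for 5d-U (replicates 1, 2 and 6), and 62424851, 12540745 and 23495260 for 2+3d-C (replicates 4, 5 and 10). Levels are given as RPKM, reads per kilobase of exon and 1000000 reads, with library sizes scaled by TMM. The detection limit of 3 reads corresponded to 0.0481 to 0.239 CPM (reads per 1000000 reads). Libraries of F replicates 4 and 5 and of 5d-U replicate 1 stood apart by their reads on 1966 olfactory and vomeronasal receptor genes, which these cells do not use. They held 5.03, 7.13 and 3.85 such reads per kilobase of exon, against at most 0.622 in the other 9 libraries. 5d-U replicate 1 also had 5.85% of its reads on mitochondrial genes, against 0.068% to 1.15% elsewhere, and F replicate 1 had the highest summed level of immune markers. The fold changes of the members without F replicates 4 and 5 and 5d-U replicate 1 follow the account of the single genes.

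The MuSC label was checked first. Pax7, the transcription factor of MuSCs, was present at 2.51 ± 1.09 RPKM (SD, n = 3) for F, 5.76 ± 0.686 for 2d-U, 4.48 ± 1.78 for 5d-U and 13.3 ± 2.56 for 2+3d-C. Myod1, the factor of activated myogenic cells, was at 489 ± 167, 655 ± 81.3, 944 ± 337 and 3186 ± 1210 RPKM in the same order. All 12 libraries therefore held RNA of myogenic cells. Markers of other cells were found beside them in F and 2+3d-C, and some also in 5d-U libraries. Their values follow the AP-1 results. In bulk RNA, fewer cells of a type and less RNA per cell cannot be told apart.

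The general pattern was the same in 8 of the 9 genes. Fos, Fosb, Fosl1, Fosl2, Jun, Junb, Jund and Atf3 were higher under compression than in 5d-U and 2d-U cells, and in each of these comparisons every 2+3d-C library lay above every uncompressed library. Against 5d-U, where time in culture was equal, 8 of 9 members were called higher and none lower by edgeR at an adjusted p-value under 0.05, while 9.14% of the 22635 genes tested were called higher and 13.4% lower. The median log2 fold change was 3.9 over the members and -1.05 over all genes tested. Against 2d-U, the state from which compression started, the same count of 8 was higher and none lower, with 16% and 8.63% of all genes tested, and medians of 3.93 and 0. Against F, 1 member (Fosl1) was higher and none lower, with 1.94% and 4.47% of all genes tested, and medians of -0.101 and -0.762. These comparisons share the 2+3d-C libraries. Without the 3 libraries with many reads on silent genes, 8 members were called against 5d-U, 8 against 2d-U and 0 against F.

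**Figure D1:**
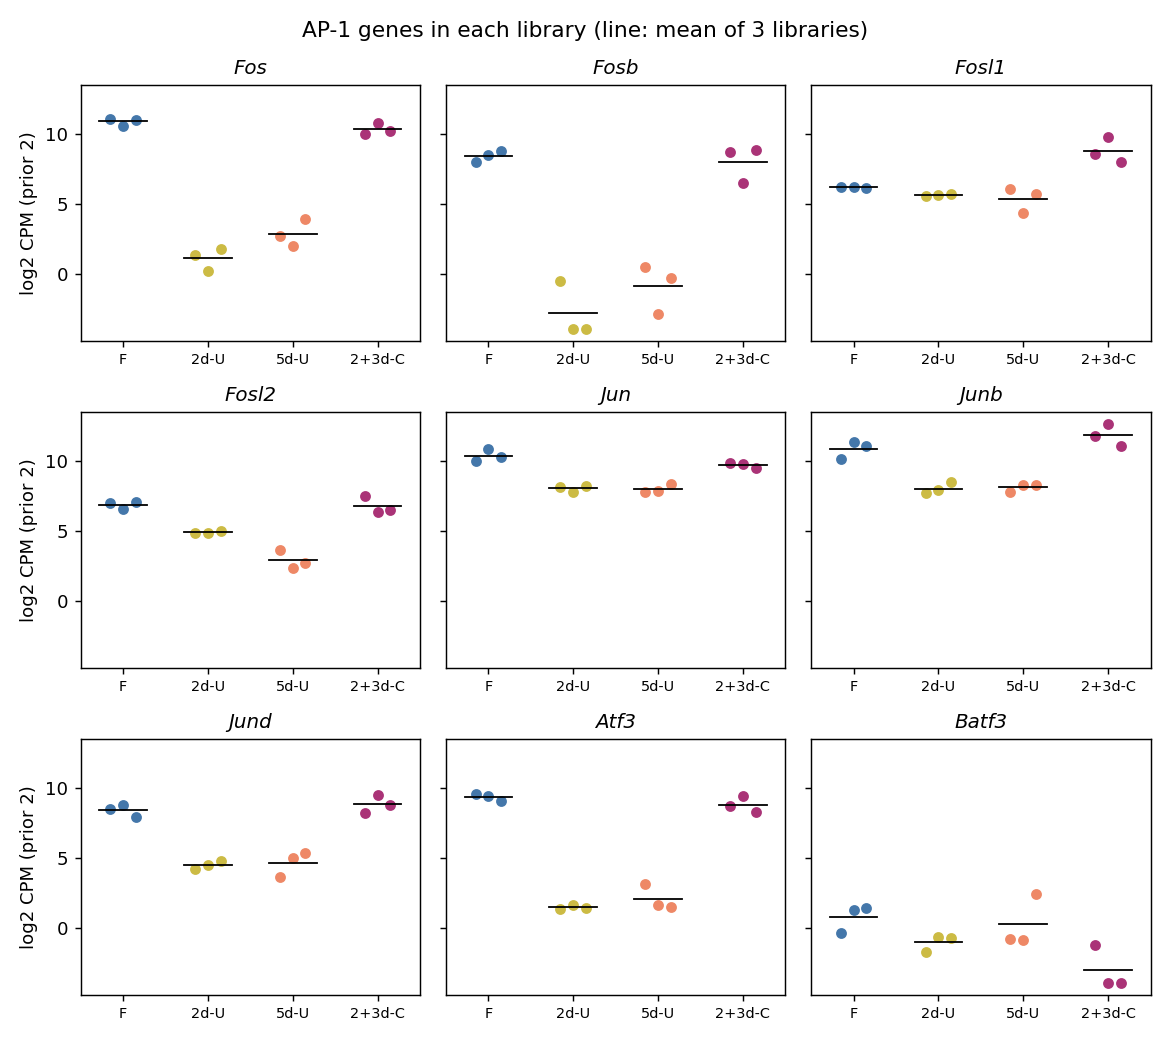
Level of each AP-1 gene as log2 CPM (reads per 1000000 reads, prior count 2) on the vertical axis, with the 4 groups on the horizontal axis. Each point is 1 library and each line the mean of 3. In 8 of the 9 panels the 2+3d-C points lie above all 2d-U and 5d-U points, and Batf3 is low throughout.

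Culture without compression showed the opposite direction. From F to 2d-U, 7 members fell, all but Fosl1 and Batf3, and none rose, with 33.3% of genes tested lower and 10.6% higher. From F to 5d-U the same 7 members fell and none rose, with 8.9% lower and 11.6% higher. From F to 2d-U, the log2 fold change was -9.71 for Fos (adjusted p = 6.624e-06), -10.56 for Fosb (0.00022) and -7.94 for Atf3 (7.182e-06). The value of Fosb rests on 2d-U replicate 1, the only library of that group with Fosb reads. Without it the fit gave -16.31, which is no bound since both remaining libraries were at 0, and without any other single library it gave -9.98 to -10.87. The log2 fold change was -3.97 for Jund (0.0001735), -2.90 for Junb (0.0008616), -2.37 for Jun (0.0005433) and -1.99 for Fosl2 (0.004937). To 5d-U, the log2 fold changes were -7.85 for Fos, -8.94 for Fosb, -7.12 for Atf3, -3.64 for Jund, -2.82 for Junb, -2.40 for Jun and -3.91 for Fosl2, with adjusted p-values from 2.544e-05 to 0.001141. The values to 5d-U moved to -8.55 for Fos without 5d-U replicate 6, to -9.80 for Fosb and -7.84 for Atf3 without 5d-U replicate 1, and to -3.55 for Junb and -3.02 for Jun without F replicate 1. The changes of Fos, Fosb and Atf3 were thus the largest of the members in both comparisons. Without the 3 libraries with many silent-gene reads, 7 and 6 members were called, and Junb was no longer called between 5d-U and F (adjusted p = 0.1105). Between 5d-U and 2d-U, only Fosl2 was called, as lower, with 0.243% of genes tested lower and 1.87% higher.

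Fos encodes the founding member of the family and is a standard readout of acute stimulation. Its level was 942, 659 and 877 RPKM in the F libraries, 1.07, 0.45 and 1.41 for 2d-U, 2.7, 1.68 and 6.34 for 5d-U, and 446, 740 and 499 for 2+3d-C. Every uncompressed library lay far below every F and 2+3d-C library, and F and 2+3d-C overlapped. By level, Fos held rank 20 to 34 among all genes in F and rank 67 to 96 in 2+3d-C, but rank 5611 to 11172 in the uncompressed libraries. The mean in 2+3d-C (562 ± 157 RPKM, SD, n = 3) was 157-fold that in 5d-U (3.57 ± 2.45), with a log2 fold change of 7.3 (SE 0.67, adjusted p = 9.829e-06), or 7.998 without 5d-U replicate 6, the highest library of that group. Against 2d-U the log2 fold change was 9.16 (adjusted p = 3.767e-06). Against F it was -0.56, with a 95% interval from -1.64 to 0.53 (adjusted p = 0.4602). Fos was higher in each 5d-U library than in each 2d-U library, yet this difference did not pass (log2 fold change 1.86, adjusted p = 0.07294), although it did with DESeq2 (0.03229), with no filter (0.02914) and without 5d-U replicate 2 (0.0345).

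Fosb, which encodes the relative that also gives the long-lived splice form deltaFosB, had a similar pattern at lower levels. It was at 40.9, 57.5 and 70 RPKM for F and at 67.4, 14.2 and 75.3 for 2+3d-C. In the uncompressed libraries it had 33, 0 and 0 reads in 2d-U and 31, 2 and 15 for 5d-U, where the density on silent genes alone would place 24 of the 31 reads of 5d-U replicate 1. Fosb was thus scarce or undetected in all 6 uncompressed libraries, and replicate 5 was the low library of 2+3d-C. The rise against 5d-U had a log2 fold change of 8.84 (SE 1.38, adjusted p = 0.0005037). It was 10.22 with the reads expected from silent genes subtracted and 6.39 with the replicate number as a block. Without the 3 libraries with many silent-gene reads it was 9.71. Against F the log2 fold change was -0.10 with an interval from -2.16 to 1.96, too wide to place the groups apart or together, and its sign turned when those libraries were left out (0.37).

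Fosl1 (Fra-1), a Fos protein without the transactivation domain of Fos and itself known as an AP-1 target, had another pattern than Fos. It was at 36.3, 35.9 and 35.4 RPKM for F, 23.7, 24.2 and 25.9 for 2d-U, 32.9, 10.2 and 25.8 for 5d-U, and 191, 440 and 129 for 2+3d-C. Here F lay close to the uncompressed groups, and each of the 3 compressed libraries lay above all other 9. Fosl1 rose in 2+3d-C against 5d-U (log2 fold change 3.46, SE 0.53, adjusted p = 0.0004757, 11-fold in mean RPKM) and against 2d-U (3.36, adjusted p = 0.0004873). It was the member called against F (2.82, SE 0.52, interval 1.71 to 3.93, adjusted p = 0.009785, 7.06-fold). Without 2+3d-C replicate 5, the library with the most Fosl1, its log2 fold changes over 5d-U, 2d-U and F were 2.80, 2.70 and 2.17, the last with an adjusted p of 0.02173. The call against F held without any single library, with adjusted p-values up to 0.04997, the value without F replicate 4. When F replicates 4 and 5 and 5d-U replicate 1 were left out, the log2 fold change against F was 2.81 but was no longer called (adjusted p = 0.2832), in a fit that takes the spread of the 1 remaining F library from the other groups. The differences from F were not called, with -0.54 for 2d-U (interval -1.58 to 0.50) and -0.64 for 5d-U (interval -1.69 to 0.40), although each F library lay above each uncompressed one. In a fit of only the 6 libraries of F and 2d-U, the fall of Fosl1 was called (-0.65, adjusted p = 0.02526).

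The level of Fosl1 is understated by the counting. Its exons (chr19:5447547-5455946, plus strand) share 57.2% of their length with Ccdc85b on the opposite strand, and reads on shared exon were not assigned to either gene. Per kilobase of exon that no other gene shares, Fosl1 was at 83.8 RPKM for F, 57.5 for 2d-U, 53.6 for 5d-U and 592 for 2+3d-C. This changes its level relative to other genes and leaves its folds between groups as they are.

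Fosl2 (Fra-2) is the second Fos protein that lacks that domain and was the least abundant of the family in 2+3d-C on average. It was at 13.3, 9.96 and 14.1 RPKM for F, 3.01, 3.02 and 3.37 for 2d-U, 1.28, 0.534 and 0.677 for 5d-U, and 19, 8.5 and 9.55 for 2+3d-C. The order was thus F and 2+3d-C together, then 2d-U, then 5d-U, with no overlap between these 3 levels. Fosl2 rose 14.9-fold in 2+3d-C against 5d-U (log2 fold change 3.9, SE 0.49, adjusted p = 0.0001078) and 3.95-fold against 2d-U (adjusted p = 0.005919, or 0.05114 without TMM scaling). Its difference from F was -0.01 on the log2 scale (interval -0.94 to 0.92). The further fall from 2d-U to 5d-U (log2 fold change -1.91, SE 0.45, adjusted p = 0.04486) was close to the threshold and was lost when any of 8 single libraries was left out, with adjusted p-values up to 0.1339.

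The make-up of Fos family RNA therefore differed between groups while its sum did not separate F from 2+3d-C. The summed RPKM of the 4 genes was 931 for F (763 to 1033) and 880 for 2+3d-C (713 to 1202), against 28.8 for 2d-U (27.7 to 30.7) and 27.5 for 5d-U (12.4 to 37.1). Fos made up 88.6% of the sum in F (86.5% to 91.2%) and 64.4% for 2+3d-C (61.5% to 70%), but 3.35% for 2d-U and 13.4% for 5d-U. Fosl1 made up 3.92% for F (3.52% to 4.7%) and 27% for 2+3d-C (18.1% to 36.6%), and 85.6% and 83% for 2d-U and 5d-U. The shares of Fosl1 for F, in 2+3d-C and in the uncompressed libraries did not overlap. Per unshared exon, Fosl1 made up 8.7% of the sum in F and 45.7% in 2+3d-C (34% to 57.4%), close to the 47.8% of Fos there.

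**Figure D2:**
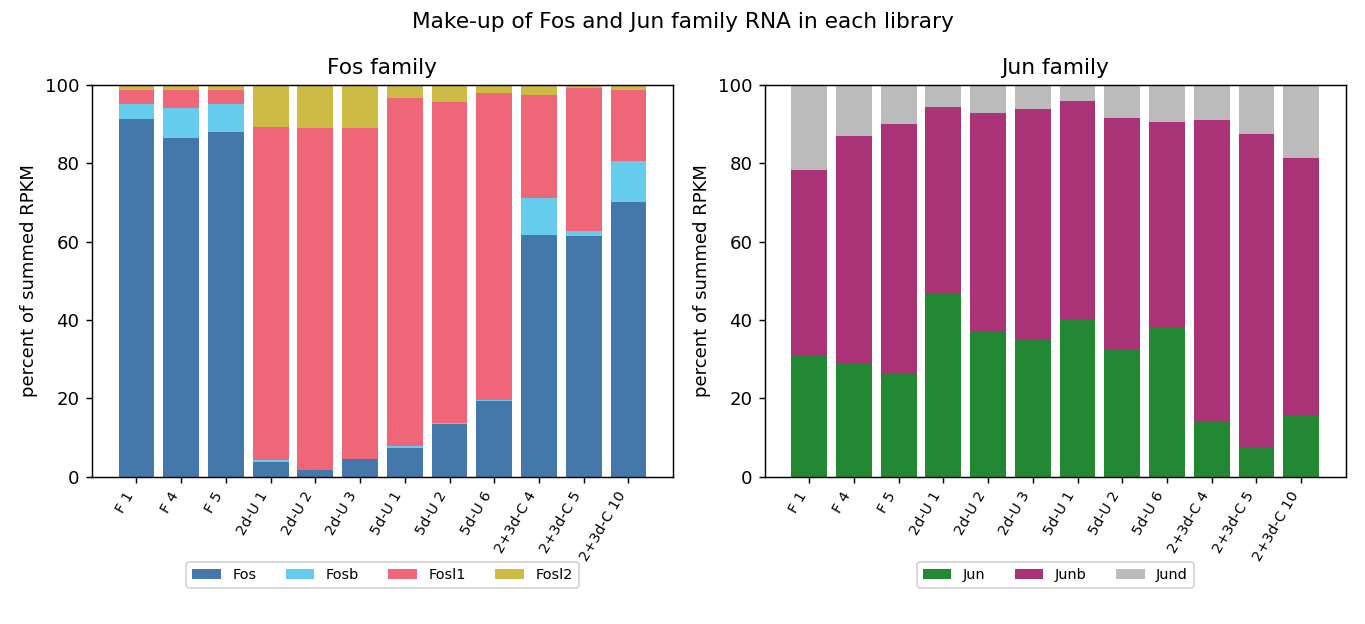
Share of each gene in the summed RPKM of the Fos family (left) and of the Jun family (right), in percent, with 1 bar for each of the 12 libraries. Fosl1 fills most of the Fos family bar in 2d-U and 5d-U, 3.52% to 4.7% of it in F and 18.1% to 36.6% for 2+3d-C, and Junb takes its largest share in 2+3d-C.

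Jun, the partner through which Fos proteins mostly bind DNA and a substrate of JNK kinases, moved least among the genes that rose. It was at 319, 586 and 395 RPKM for F, 88.9, 68.8 and 93.8 for 2d-U, 69.4, 74.9 and 101 for 5d-U, and 294, 274 and 225 for 2+3d-C. Jun thus stayed among abundant RNAs in every group, and each 2+3d-C library lay below each F library. It rose 3.22-fold against 5d-U (log2 fold change 1.69, SE 0.37, adjusted p = 0.00471) and 3.15-fold against 2d-U (adjusted p = 0.004995). Its lower level than in F was not called (-0.72, interval -1.48 to 0.05, adjusted p = 0.1592), although it was with DESeq2 (adjusted p = 0.04172), without TMM scaling (0.04735) and without F replicate 1 (0.04075).

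Junb, which can stand in for Jun in the dimer and is often a weaker activator, was the most abundant AP-1 RNA in 2+3d-C. It was at 493, 1183 and 956 RPKM for F, 90.6, 105 and 157 for 2d-U, 97.3, 136 and 139 for 5d-U, and 1582, 2866 and 940 for 2+3d-C. It ranked 16 to 32 among all genes in the compressed libraries and 7 to 75 for F, against 279 to 921 in the uncompressed ones. Junb rose 14.5-fold in 2+3d-C against 5d-U (log2 fold change 3.86, SE 0.52, adjusted p = 0.0001738) and 15.3-fold against 2d-U (adjusted p = 0.0001241). Against F, the log2 fold change of 1.03 (interval 0.04 to 2.03) was not called (adjusted p = 0.1273), and the groups overlapped.

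Jund is the Jun gene known for steady expression in resting cells. It was at 226, 267 and 151 RPKM for F, 10.9, 13.4 and 16.8 for 2d-U, 7.41, 19.5 and 24.9 for 5d-U, and 184, 453 and 266 for 2+3d-C. Its level in these libraries was not steady, since all uncompressed libraries lay below all others. Jund rose 17.4-fold against 5d-U (log2 fold change 4.12, SE 0.54, adjusted p = 0.0001447) and 21.9-fold against 2d-U (adjusted p = 7.376e-05), and its difference from F was 0.49 (interval -0.53 to 1.5, adjusted p = 0.4961), or -0.05 without TMM scaling. The exons of Jund (chr8:70698949-70700616) share 52.6% of their length with Gm11175, which had 0 reads in all 12 libraries, so that its level is understated as well. Per unshared exon it was at 453 RPKM in F and 634 in 2+3d-C.

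Within the Jun family, Junb held 74.1% of the summed RPKM for 2+3d-C (65.7% to 79.8%), against 56.4% for F (47.5% to 63.6%), 54.1% for 2d-U and 55.7% for 5d-U. The share of Jun was 12.5% for 2+3d-C (7.63% to 15.7%) and 28.6% for F (26.3% to 30.7%). These shares of F and 2+3d-C did not overlap. Per unshared exon, the ranges of Junb overlapped, at 55.9% to 71.3% in 2+3d-C and 39.4% to 58.1% in F, while those of Jun did not (6.8% to 13.3% and 24% to 25.6%). The family sum was 2361 RPKM for 2+3d-C (1430 to 3593) and 1525 for F (1038 to 2036), which overlapped, and 215 and 223 for 2d-U and 5d-U.

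Atf3, a stress-induced factor that pairs with Jun proteins and represses or activates by partner, followed Fos most closely among the members. It was at 353, 324 and 261 RPKM for F, 1.18, 1.42 and 1.21 for 2d-U, 4.04, 1.41 and 1.27 for 5d-U, and 198, 323 and 148 for 2+3d-C. F and 2+3d-C overlapped and lay far above all 6 uncompressed libraries. Atf3 rose 99.5-fold against 5d-U (log2 fold change 6.64, SE 0.59, adjusted p = 9.22e-06, or 7.36 without 5d-U replicate 1) and 176-fold against 2d-U (7.45, adjusted p = 4.586e-06), and its difference from F was -0.49 (interval -1.47 to 0.49, adjusted p = 0.477). Over the 12 libraries, Pearson's r of log2 CPM between Fos and Atf3 was 0.98, the highest for Fos with any other member, and mostly reflects the distance between F or 2+3d-C libraries and the uncompressed ones.

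Batf3 encodes a partner of Jun proteins that has no transactivation domain and is known from dendritic and T cells. It was scarce throughout, with 17, 73 and 106 reads in F, 13, 15 and 24 for 2d-U, 12, 14 and 109 for 5d-U, and 20, 0 and 0 for 2+3d-C. The corresponding levels were at most 3.34 RPKM, and 5d-U replicate 6 alone held the high value of its group. The density on silent genes alone would place 6.14 of the 12 reads of 5d-U replicate 1. As counted, that library was at 0.327 RPKM and 2+3d-C replicate 4 at 0.235. Without a correction for such reads, Batf3 was lower in each 2+3d-C library than in each 5d-U library and each F library. Neither difference was called (log2 fold change -3.83, adjusted p = 0.09365, and -3.69, adjusted p = 0.122). DESeq2 called both (adjusted p = 0.03868 and 0.03854), and the difference from 5d-U was also called without 2+3d-C replicate 4 (0.03306), the library that held all 20 reads. The fitted values moved with single libraries, against 5d-U to -8.96 without that library and to -1.82 without 5d-U replicate 6, and against F to -8.79 without 2+3d-C replicate 4. Against 2d-U the groups overlapped, and the log2 fold change was -1.63 (interval -4.84 to 1.59, adjusted p = 0.4916). It was the only member with a lower mean under compression than in 5d-U.

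When F replicates 4 and 5 and 5d-U replicate 1 were left out, the 8 genes that rose against 5d-U were still called, from 1.57 for Jun (adjusted p = 0.01769) to 9.71 for Fosb (adjusted p = 0.007716) on the log2 scale. Against F, none of the 9 was called, with -0.74 for Fos, -0.09 for Fosl2, -0.26 for Jun, 1.87 for Junb, 0.42 for Jund and -0.66 for Atf3. From F to 5d-U, Jun (-1.83, adjusted p = 0.04598) was called and Junb (-1.82, adjusted p = 0.1105) was not. F replicate 1, the remaining F library, had 91.2% Fos and 3.52% Fosl1 in its Fos family sum.

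**Figure D3:**
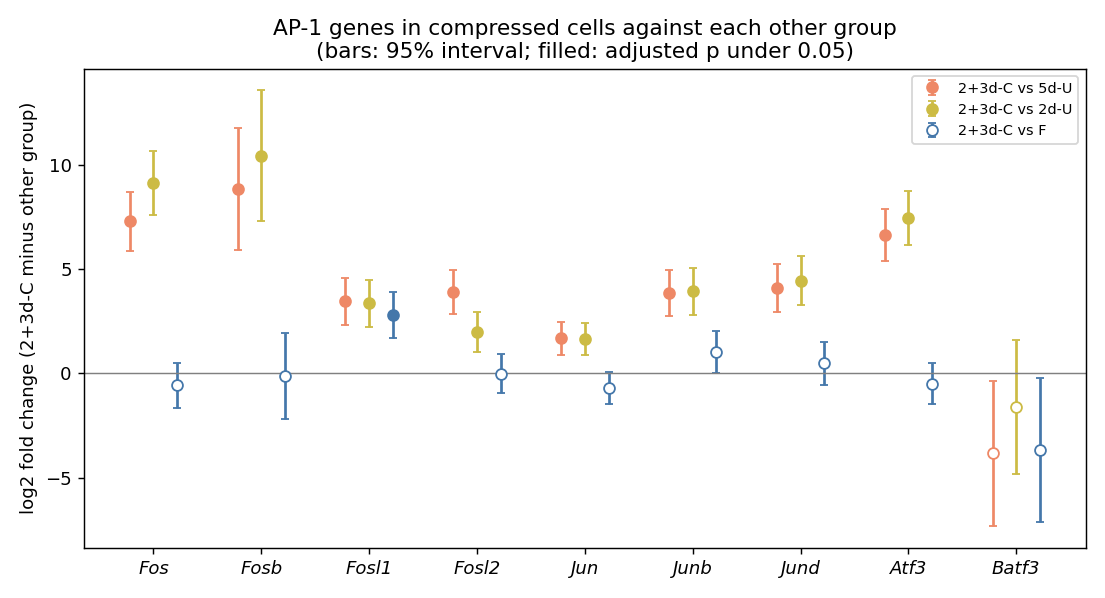
Log2 fold change of each AP-1 gene in 2+3d-C against 5d-U, 2d-U and F on the vertical axis, with 95% intervals as bars and filled points for an adjusted p-value under 0.05. Against 5d-U and 2d-U, 8 genes lie above 0, and against F the filled point is Fosl1.

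Genes most alike in pattern were ranked by Pearson's r of log2 CPM over the 12 libraries, among 8887 named genes averaging 10 CPM or more. They were Dusp1 (0.991), Prnp (0.990) and Rgcc (0.990) for Fos, Abca8b (0.993), Olfml2a (0.993) and Egr2 (0.993) for Fosb, and H2-Q6 (0.994), Sfrp5 (0.993) and Rarres2 (0.992) for Atf3. The phosphatase gene Dusp1 and the factor gene Egr2 are themselves early-response genes. Fosl1 was most like Snhg16 (0.977), S100a16 (0.957) and Alkbh1 (0.954), Jun most like Ifi205 (0.977), Junb most like Cebpd (0.978), Jund most like Usp2 (0.986), and Fosl2 most like Cx3cl1 (0.982). Batf3 had no close match (Afap1, 0.903). Libraries of a group share their state, so that these values describe the same contrast between groups many times over.

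Among 12 other genes of the bZIP superfamily that can pair with AP-1 proteins, 5 rose and none fell in 2+3d-C against 5d-U, where 9.14% of all genes rose and 13.4% fell. The median log2 fold change was 1.04, beside -1.05 over all genes tested. The small Maf proteins, which lack an activation domain, led them. Mafk was at 146 ± 9.72 RPKM for F (SD, n = 3), 8.3 ± 2.51 for 2d-U, 8.31 ± 4.46 for 5d-U and 210 ± 95.9 for 2+3d-C, and rose against 5d-U by 4.66 on the log2 scale (SE 0.52, adjusted p = 4.479e-05). Maff rose from 1.82 ± 0.74 to 127 ± 52.5 RPKM (6.13, SE 0.56, adjusted p = 9.73e-06). Mafg differed in that F (15.7 RPKM) lay close to 2d-U (12.8) and 5d-U (14.5), with 46.4 ± 9.13 RPKM in 2+3d-C, and it rose against F (1.57, SE 0.34, adjusted p = 0.01973). Jdp2, a repressor at AP-1 sites, was at 36.2 ± 25.1 RPKM for 5d-U and 26.2 ± 12.1 for 2+3d-C, and this difference was not called (adjusted p = 0.4699). Against F, where 1.94% of all genes rose and 4.47% fell, 1 partner rose (Mafg) and 1 fell, the retinal factor Nrl, which was below 1 RPKM in every library.

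Of 19 genes that act on AP-1 from above, for MAP kinases, their activating kinases, serum response factor with its cofactors, and CREB, 4 rose and 1 fell against 5d-U, with a median log2 fold change of 0.139, where 9.14% of all genes rose, 13.4% fell and their median was -1.05. Map2k3, a kinase that activates p38, was the most abundant, at 129 ± 32.9 RPKM for 5d-U and 427 ± 50.6 for 2+3d-C (log2 fold change 1.72, SE 0.35, adjusted p = 0.003027). Map2k1, which activates ERK, rose from 41.8 ± 17.6 to 135 ± 15.4 RPKM (1.69, adjusted p = 0.009114). Elk4, a ternary complex factor that acts with serum response factor, rose from 1.57 ± 0.79 to 12.1 ± 5.03 RPKM (2.95, adjusted p = 0.001406). The gene that fell was Mapk10, a JNK gene of neurons, which was below 0.16 RPKM in every library. Without 5d-U replicate 6, 3 genes of this list rose and none fell. Against F, Map2k3 (1.23, adjusted p = 0.04824) and Map2k2 (1.66, adjusted p = 0.02689) rose and none fell, where 1.94% of all genes rose and 4.47% fell. RNA of a kinase gives no measure of its activity, which was not assayed in these libraries.

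Of 20 genes with known AP-1 sites in their control regions, 10 rose and 4 fell against 5d-U (9.14% and 13.4% of all genes), with a median of 1.66, and 0 rose and 2 fell against F (1.94% and 4.47% of all genes). Il6, an inflammatory cytokine, was at 416 ± 126 RPKM for F, 0.0608 ± 0.105 for 2d-U, 0.375 ± 0.483 for 5d-U and 163 ± 123 for 2+3d-C, and rose against 5d-U (8.77, SE 1.36, adjusted p = 0.0005036). The oxidative stress enzyme gene Hmox1 (1.81, adjusted p = 0.03318) and the metal-binding Mt1 (1.71, adjusted p = 0.01754) rose less. The genes that fell included Spp1 and Ccnd1. Spp1, an extracellular phosphoprotein, was at 1994 to 16440 RPKM for 5d-U and 6.26 to 42 for 2+3d-C (-8.48, SE 1.12, adjusted p = 0.0001562), and Ccnd1, cyclin D1 of the cell cycle, was at 151 ± 91.9 and 3.28 ± 2.45 RPKM (-5.54, SE 0.85, adjusted p = 0.0004738). Gja1, a gap junction gene, was among those lower than in F (-2.66, SE 0.49, adjusted p = 0.01023), at 19.5 ± 9.46 against 123 ± 14.6 RPKM. Without 5d-U replicate 2, 9 genes of this list were called against 5d-U in place of 14.

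Early-response genes outside AP-1 moved with the AP-1 genes. Of 19 such genes, 18 rose and none fell against 5d-U (median 4.96, beside -1.05 over all genes), and 17 rose against 2d-U. Of all genes, 9.14% and 16% rose in these comparisons. From F to 2d-U and to 5d-U, 17 and 18 of the 19 fell, beside 33.3% and 8.9% of all genes. Egr1, a zinc-finger factor, was at 1066 ± 484 RPKM for F, 13.6 ± 6.27 for 2d-U, 7.56 ± 5.83 for 5d-U and 1621 ± 589 for 2+3d-C (7.74 against 5d-U, SE 0.80, adjusted p = 2.469e-05). The nuclear receptor Nr4a1 (7.42, adjusted p = 2.799e-06), the RNA-decay factor Zfp36 (7.09, adjusted p = 9.571e-06) and Klf4 (6.71, adjusted p = 8.571e-06) rose by similar amounts. The exception was Klf2, a factor known from flow-exposed endothelium, which was at 119 ± 38.6 RPKM in F but 20.7 ± 2.36 in 5d-U and 17 ± 2.78 in 2+3d-C. Klf2 was lower in 2+3d-C than in F (-2.80, SE 0.42, adjusted p = 0.002803) and did not differ detectably from 5d-U (-0.29, adjusted p = 0.5829). In the other direction, Myc (2.06, adjusted p = 0.03277), Ier2 (1.81, adjusted p = 0.03577) and Ccn1, a YAP target (1.98, adjusted p = 0.04358), were higher in 2+3d-C than in F. Maff belongs to this list as well as to the partners. The counts against F moved when single libraries were left out, to 0 to 2 called partners, 0 to 4 upstream genes, 1 to 4 genes with AP-1 sites and 1 to 4 early-response genes.

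The summed endothelial and fibroadipogenic markers lay higher in each 2+3d-C library than in each uncompressed one and lower than in each F library. The 5 endothelial markers summed to 138 to 180 RPKM for F, 0.486 to 0.896 for 2d-U, 0.363 to 4.65 for 5d-U and 13.9 to 33.3 for 2+3d-C, with Pecam1 the most abundant in F and Tek or Emcn in 2+3d-C. Of these 5, 4 rose against 5d-U and none fell, where 9.14% of all genes rose and 13.4% fell, and Emcn was not called (2.02, adjusted p = 0.1942). The 5 fibroadipogenic markers summed to 567 to 1369 RPKM in F, led by Dcn, to at most 34.1 in the uncompressed libraries, and to 187 to 390 in 2+3d-C, led by Dpt. Of these 5, 3 rose against 5d-U (Dcn, Lum and Dpt, with the same 9.14% of all genes), and Pdgfra (0.82, adjusted p = 0.6256) and Ly6a (1.47, adjusted p = 0.1993) were not called. Dpt, a matrix protein gene, made up most of the sum in 2+3d-C, at 120 to 218 RPKM there and 58.6 to 88.2 for F, whereas Dcn was at 26.4 to 75.2 RPKM for 2+3d-C and 276 to 780 for F. Against F, the median log2 fold change was -2.35 for the endothelial and -3.49 for the fibroadipogenic markers, beside -0.762 over all genes tested, and 1 endothelial marker, Pecam1, fell, with 4.47% of all genes lower there.

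The 7 immune markers summed to 3463, 541 and 618 RPKM for F, under 1 for 2d-U, 169, 1.08 and 4.39 for 5d-U, and 102, 232 and 4.18 for 2+3d-C, with S100a9 or Lyz2 the most abundant in F and 2+3d-C. In 2+3d-C replicate 10, 5 of the 7 immune markers had 3 or fewer reads. None of the 7 rose against 5d-U and 1 fell, with 13.4% of all genes lower there, while 3 of the 7 rose against 2d-U and none fell, with 16% of all genes higher and 8.63% lower. The 5 smooth muscle and pericyte markers summed to 232 to 262 RPKM for F, 28.5 to 38.9 for 2d-U, 22.4 to 328 for 5d-U and 82.2 to 146 for 2+3d-C. Most of these sums was Acta2, smooth muscle actin, at 143 to 168 RPKM for F, 28.5 to 38.6 for 2d-U, 20.6 to 326 for 5d-U and 60.2 to 126 for 2+3d-C, and its difference from 5d-U was not called (-1.03, adjusted p = 0.2281). Of the other markers, Myh11, smooth muscle myosin (5.72, adjusted p = 0.001189), and the pericyte genes Rgs5 (3.51, adjusted p = 0.002806) and Pdgfrb (3.54, adjusted p = 0.0118) rose against 5d-U, and Cspg4 was not called (0.16, adjusted p = 0.94). The count was thus 3 of 5 higher and none lower, with 9.14% of all genes higher. The 4 myofiber markers, led by Acta1, ranged from 12.6 to 1215 RPKM in F and from 23.7 to 82.4 in 2+3d-C, with none higher and 1 lower against 5d-U, beside the 13.4% of all genes.

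Of 10 MuSC and myoblast markers, 6 rose against 5d-U and none fell, where 9.14% of all genes rose and 13.4% fell. Those not called were Myf5 (0.78, adjusted p = 0.2417), Cdh15 (0.87, adjusted p = 0.203), Itga7 (0.56, adjusted p = 0.4381) and Cd34 (2.07, adjusted p = 0.1171). The sum was 5750 to 6842 RPKM in 2+3d-C against 972 to 2267 in all other libraries. Among them, Sdc4, a MuSC surface proteoglycan, was at 718 ± 374 RPKM for F, 67 ± 1.89 for 2d-U, 59.1 ± 12 for 5d-U and 1903 ± 619 for 2+3d-C. The part of endothelial, fibroadipogenic and other cells in the AP-1 levels of F and 2+3d-C was not tested. F cells were lysed during the sort, and 2+3d-C cells after a device had been lifted off, whereas 2d-U and 5d-U cells lost their medium only, so that handling before lysis and the group cannot be told apart.

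**Figure D4:**
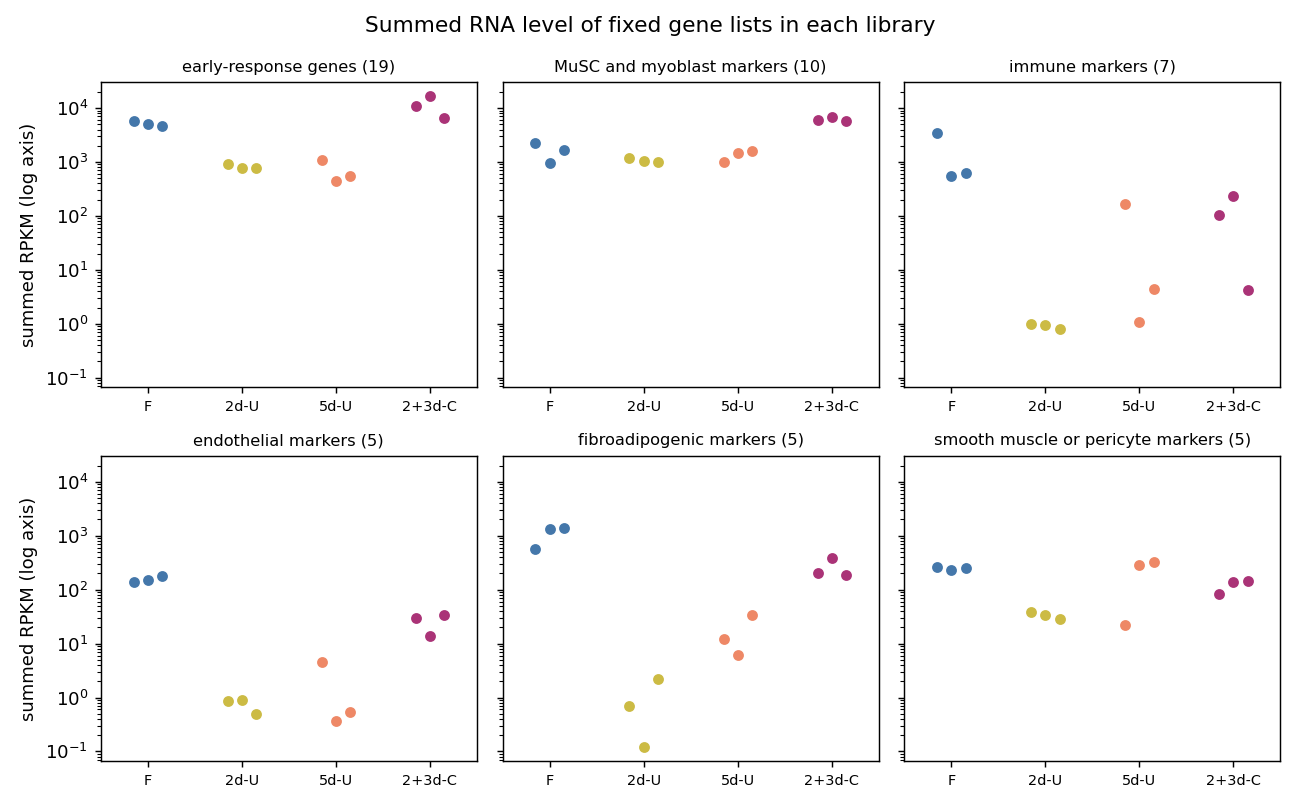
Summed RPKM (log axis) of early-response genes outside AP-1 and of markers of MuSCs, immune, endothelial and fibroadipogenic cells and of smooth muscle or pericytes, with 1 point for each library and the 4 groups on the horizontal axis. The sums of early-response, endothelial and fibroadipogenic genes are each higher in all 3 libraries of 2+3d-C than in all 2d-U and 5d-U libraries, which does not hold for every gene in them.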

How the data were processed

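RNA of 12 libraries was reverse transcribed and amplified with the SMART-seq v4 kit and sequenced as single-end reads of 75 bases. The authors aligned the reads to mm10 with the nf-core RNA-seq pipeline and deposited raw counts per gene from featureCounts 1.6.4 with GENCODE vM23, without strand and without normalization. The command in the file headers does not assign a read to more than 1 gene, so reads on exon shared by 2 genes were not counted. A merged table of all libraries was not used.

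The counts went into edgeR 4.0.16 (R 4.3.3). After filterByExpr, which kept 22635 of 55335 genes, and TMM scaling, a single quasi-likelihood fit took all 12 libraries with group as the factor. The 6 contrasts were tested two-sided, with Benjamini-Hochberg adjustment over all genes tested and a threshold of 0.05. Intervals are 95% intervals of the log2 fold change. For RPKM, the exon length in the files and library sizes after TMM were used. For log2 CPM, the prior count was 2. Nothing in the labels says that libraries came from separate animals, so p-values measure the spread between these libraries, which may be technical. Replicates differed by more than sampling noise (chi-square per gene 50.95 or more), and each was counted once. With 3 against 3, an exact permutation test cannot go below p = 0.1, and none was made. RefSeq promoter windows were matched by symbol, and motif letters were searched as written.

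The members and lists were chosen with earlier results of these data known. Named genes are the 9 members and genes picked from the top 3 of each other list by mean RPKM or by smallest p. The p-values are those of either 2+3d-C contrast, with 5d-U or F. Up to 3 genes most like each member are also named. For some marker lists, further genes that were not called against 5d-U are named too. Of the 21 names of the upstream list, 19 are in the files, and of the 20 early-response names, 19 are. The names not found, Mkl1, Mkl2 and Cyr61, are older symbols of Mrtfa, Mrtfb and Ccn1, which are in the lists and the files. On simulated data for 2+3d-C against 5d-U (19872 genes, 50 changed per size), the fit called 0% of changed genes at 2-fold, 8% at 4-fold, 44% at 8-fold and 72% at 16-fold, none in the wrong direction. Alternatives were DESeq2 1.42.0, no TMM, no filter, the replicate number as a block, only the 6 libraries compared, subtraction of reads expected from silent genes, each library left out in turn and, added after the data were seen, the fit without 3 libraries with over 3 silent-gene reads per kilobase. Exon overlaps used GenomicRanges 1.54.1. The result of 1 marker list is not reported here.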

Additional observations from a re-analysis of the deposited data

How the results depend on the processing

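Counts of called members kept within 1.5 times their value for 2+3d-C against 5d-U (7 to 9), for 2d-U against F (5 to 8) and for 5d-U against F (5 to 7) under the alternatives run. Against F, 2+3d-C had 2 called members with library size without TMM, 3 with DESeq2, 0 without the 3 libraries with many silent-gene reads, and 1 to 2 with single libraries left out. Between 5d-U and 2d-U the count was 0 with library size without TMM, 2 with no filter on low counts, 2 with DESeq2, 0 without the 3 libraries, and 0 to 1 with single libraries left out. With the replicate block, 5 members were called for 2+3d-C against 2d-U and 0 for 5d-U against 2d-U. Those no longer called in 2+3d-C against 2d-U were Fosl1 (log2 fold change 3.15, adjusted p = 0.07361), Fosl2 (1.90, adjusted p = 0.4285) and Jun (1.20, adjusted p = 0.684). Jun was also not called in 2+3d-C against 5d-U with the block (1.31, adjusted p = 0.4339). Same-numbered libraries did not deviate together (r of -0.424 to 0.0322 over 6 pairs). This cannot tell whether they share a sort, which the labels do not give. Deviations over all genes also hold other differences between libraries, such as their reads on silent genes. Against F, where none of these was called, signs turned for Jund (-0.0495 without TMM), for Fosl2 (0.0527 with no filter, 0.1032 with the replicate block, and -0.4574 to 0.2155 with single libraries left out) and for Fosb (0.3679 without the 3 libraries, and -0.4432 to 0.3607 with single libraries left out). Leaving out TMM moved the median log2 fold change of all genes from -0.762 to -1.24 in 2+3d-C against F. It turned the split of calls against 2d-U from 3619 higher and 1954 lower to 2537 and 3139. In simulated data, changes of 2-fold to 4-fold were mostly missed at this depth and spread. The causes of these shifts were not tested.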
